A study of Homo sapiens with 36 samples.

Results

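The 40 genes described here encode the machinery of cell division: mitotic kinases, the spindle checkpoint, the kinetochore, spindle motors and the proteins of the central spindle and cytokinesis. They were listed by gene name for their known function, by a list drawn up with earlier results of these data known, and all 40 were found among the 60675 genes of the count table. The 36 libraries came from 2 established human cell lines, SW1783 from an astrocytoma and HT29 from a colorectal adenocarcinoma. Cells received for 24 h either ACD, which is Aconitum carmichaeli Debeaux root extracted in hot water (Aconiti Lateralis Radix Preparata in the labels), at 500 (high), 100 (medium) or 20 µg/mL (low), or wortmannin at 10 µM, or vehicle, labelled as 0.1% DMSO. Wortmannin blocks the lipid kinase PI3K and was the positive control. In each line the 3 ACD groups and a vehicle group formed batch B, the wortmannin group and another vehicle group formed batch A, and each of these 12 groups held 3 replicates. The lines also differed in culture, SW1783 in L-15 medium without CO2 and HT29 in DMEM with 5% CO2. By the paper's methods SW1783 was also plated with fewer cells per well than HT29. Medium, plating density and line therefore cannot be told apart.

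Genes of mitosis are transcribed in a wave that starts after DNA replication and ends as cells divide. Cyclin B with CDK1 drives entry into mitosis, Aurora and Polo-like kinases build the spindle, the checkpoint proteins hold the anaphase-promoting complex until every kinetochore is attached, and that complex then marks cyclin B and securin for destruction. The transcription factor FOXM1 and the MuvB complexes switch many of these genes on. Their summed RNA is therefore widely read as a measure of how many cells divide.

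Every gene was well counted. Libraries held 15941255 to 33866644 counts, the lowest count of any of the 40 genes in any library was 71, and for 30 of them every value was a whole number, so that their reads had been assigned without splitting. Values that were not whole were frequent for FOXM1, UBE2S, PRC1, PLK1 and KIF23, so their counts hold reads that were divided between genes. Named pseudogenes carried reads amounting to 5.25% of those of UBE2C and 3.05% of those of UBE2S. Of 8 markers of each line, all 8 for HT29 and 6 for SW1783 were higher in that line. The astrocyte genes GFAP, AQP4 and S100B were at or near 0 in SW1783. Among the HT29 libraries of the high dose, replicate 2 stood apart, and the main results that rest on it are given with and without it. Between the vehicles of batches A and B none of the 40 genes was called in either line (DESeq2, 0 at an adjusted p under 0.05 and 0 at an unadjusted p under 0.05). That comparison called 1 of 28759 genes in SW1783, or 0.00348%, and 0 of 27605 in HT29, which is 0%. Same-numbered vehicles of the 2 batches deviated together (correlations of 0.237 to 0.303 in SW1783 and 0.503 to 0.801 in HT29) and may share a culture. If so, agreement was likely in advance, and the comparison cannot show that the batches were alike.

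In untreated cells both lines expressed the whole set. Per kilobase of exon, the highest levels in the SW1783 vehicle of batch B were those of CDC20, an activator of the anaphase-promoting complex, at 104 CPM (counts scaled to the library total) per kilobase, of the cytokinesis scaffold ANLN at 76.2 and of CCNB1 (cyclin B1) at 75.4. In HT29 the ubiquitin-conjugating enzyme UBE2C led with 92.1 CPM per kilobase, followed by CDC20 with 85.2 and UBE2S with 82.5. CDC25C, the phosphatase that activates CDK1, was lowest in both lines, at 4.82 and 5.97 CPM per kilobase.

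Fitted on the same scale, 12 genes were higher in HT29 vehicle and 3 were higher in SW1783 vehicle. Of all 24418 genes tested, 24.1% were called higher in HT29 and 28.1% lower, so that a difference between the lines was frequent in the whole transcriptome. Cyclin B2 (CCNB2) had the largest gap, at 1.45 ± 0.07 on the log2 scale (SE, n = 3 per group, DESeq2 adjusted p = 7.81e-85). MKI67, which encodes the proliferation antigen of the mitotic chromosome surface, was higher by 1.24 ± 0.21, the checkpoint gene MAD2L1 by 1.17 ± 0.19 and UBE2S by 1.11 ± 0.11 on the log2 scale. In the other direction stood ANLN at -1.30 ± 0.04, the spindle factor DLGAP5 at -0.89 ± 0.07 and the motor KIF20A at -0.80 ± 0.05. The log2 differences of TOP2A (0.01 ± 0.03) and CCNB1 (-0.01 ± 0.12) were close to 0. MKI67 was uneven among the HT29 vehicles, with normalised counts of 12994, 16861 and 16901, so its value is less firm than that of ANLN, with 4029.8, 4553 and 4730.4.

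The clearest change was in SW1783 at the high dose of ACD. Summed over the 40 genes, the set made up 0.475% ± 0.0063 (SD, n = 3) of all counts in the vehicle, 0.452% ± 0.002 at the low dose, 0.372% ± 0.0008 at the medium dose and 0.258% ± 0.004 at the high dose. Of the 40 genes, 27 fell and none rose, where a gene is called at a DESeq2 adjusted p under 0.05 and a change of more than 1.5-fold. Across all 19494 genes tested, 9.55% fell and 8.63% rose by the same rule. The median log2 fold change of the 40 genes was -0.73, with a range from -1.62 to -0.07, while the median over all genes tested was -0.01. By adjusted p alone 39 of the 40 genes fell, against 22.6% of all genes. In 39 genes all 3 libraries of the high dose were below all 3 vehicle libraries, against 29.8% of all genes. In RNA from whole cultures, fewer dividing cells and less of these RNAs per dividing cell cannot be told apart. Counts from the 2 mitochondrial ribosomal RNA genes made up 0.913 to 0.96% of the vehicle libraries and 3.01 to 3.33% at the low dose. They made up 7.67 to 8.05% at the medium dose and 5.76 to 6.06% at the high dose. That part of the total lowers the share of every other gene. With mitochondrial and ribosomal RNA genes taken out before scaling, 27 of the 40 genes were still called. DESeq2 size factors are medians over genes, so taking out 569 of 60675 genes could hardly change these calls. The summed share was not recomputed without those genes.

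**Figure D1:**
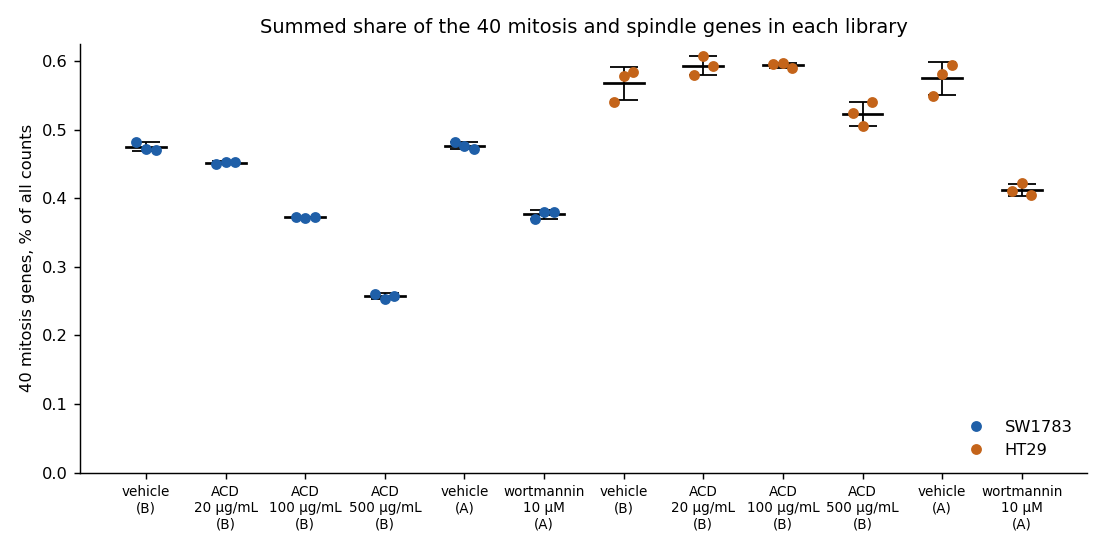
Share of all counts taken by the 40 genes (vertical axis, percent) in each of the 36 libraries, by group, with A and B the batches. Points are libraries, black lines the group mean and bars the SD (n = 3). In SW1783 the 3 points of each ACD dose sit below those of the dose before, from 0.475% in the vehicle to 0.258% at 500 µg/mL, and the wortmannin groups of both lines sit below their vehicle.

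Central spindle and cytokinesis genes held the largest fall and also some of the smallest. KIF20A, a kinesin that carries regulators to the central spindle, had 2207, 2098 and 2150.2 normalised counts with vehicle and 734, 677 and 698 with the high dose. The log2 fold change was -1.62 ± 0.05 (adjusted p = 1.05e-215), or 3.07-fold lower, and replicates within a group differed far less than the groups. ANLN went from 9429, 9136 and 9204 to 4942, 4802 and 4750.4 (-0.94 ± 0.03). The motors KIF4A and KIF23, which organise the overlapping microtubules of the midzone, fell by less (-0.68 and -0.68). PRC1, the crosslinker on which those motors act, was at -0.51 and ECT2, the exchange factor that starts the cleavage furrow, at -0.36, so 4 of 6 genes in this role were called.

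Among 7 spindle assembly factors 5 fell. ASPM, which focuses microtubule minus ends at the poles, had normalised counts of 3212, 2955 and 3008 in the vehicle and 1091, 1097 and 1085 at the high dose. Its log2 fold change was -1.49 ± 0.05 (adjusted p = 6.53e-199) and the groups were widely separated. KIF11, the motor that pushes the poles apart and the target of several antimitotic drugs, had 2285, 2210.4 and 2248 and 1153, 1058 and 1089.6 (-1.03 ± 0.05). DLGAP5 was at -0.95, TPX2, the activator of Aurora A on the spindle, at -0.78 and CKAP2 at -0.60. KIF2C, which depolymerises microtubules at kinetochores, and the microtubule-binding HMMR changed by less than the fold threshold, at -0.51 and -0.43. The call for CKAP2, close to the threshold, was lost in at least 1 of the 13 alternatives.

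Both genes of chromosome structure and proliferation fell. MKI67 had 5647, 5418 and 5639 normalised counts in the vehicle and 2244, 1917 and 2033 at the high dose, a log2 fold change of -1.43 ± 0.04 (adjusted p = 3.06e-243). TOP2A, the topoisomerase that disentangles chromosomes, went from 9883, 9511 and 9139 to 5175, 5059 and 5068 (-0.90 ± 0.03). No library of the high dose reached the lowest vehicle library for either gene.

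Mitotic entry genes fell in 7 of 8 cases. AURKA, the kinase of the spindle poles, had 2155, 2019 and 2070.1 normalised counts in the vehicle and 895, 859.5 and 936 at the high dose (-1.21 ± 0.05, adjusted p = 3.4e-124). CCNB1 had 3686, 3662 and 3798 and 2134, 1967 and 2061 (-0.86 ± 0.04), and its partner kinase CDK1 had 1579, 1503 and 1526 and 904, 914 and 864 (-0.78 ± 0.06). PLK1, the Polo-like kinase of mitotic entry and exit, had 2394, 2325 and 2473 against 1368, 1367 and 1425 (-0.79 ± 0.04). These 4 genes showed no overlap between vehicle and high dose. The changes of CDC25C (-0.71), CCNB2 (-0.64) and the centrosomal kinase NEK2 (-0.62) were smaller, and the call for NEK2 was lost in at least 1 alternative. FOXM1, the transcription factor of the group, was the one not called. It had 3313, 3292 and 3363 in the vehicle and 2666, 2597 and 2697 at the high dose, a log2 fold change of -0.32 ± 0.03 that passed the adjusted p (1.65e-19) but not the fold threshold.

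The chromosomal passenger complex, which corrects faulty kinetochore attachments and later acts in cytokinesis, fell in the 3 subunits of the set. Its subunit CDCA8 (borealin) had 1327, 1387 and 1318 normalised counts in the vehicle and 611, 559.5 and 647 at the high dose (-1.15 ± 0.06, adjusted p = 4.26e-75). BIRC5, also known as survivin, was at -0.80. AURKB, the kinase of the complex, had 670.1, 690.4 and 706 and 405, 406 and 454 (-0.71 ± 0.08). INCENP, the scaffold of the complex and not among the 40 genes, had 1041, 1064 and 1143 in the vehicle and 739, 686.5 and 744.5 at the high dose. Its log2 fold change of -0.58 ± 0.07 did not pass the fold threshold.

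Kinetochore genes fell in 4 of 6 cases. SPC25 and NDC80 are subunits of the Ndc80 complex that grips microtubules. SPC25, the gene with the lowest counts among those called, had 204, 192 and 179 in the vehicle and 82.2, 78.4 and 85.1 at the high dose (-1.23 ± 0.17, adjusted p = 7.94e-13). NDC80 had 729, 668 and 655 and 329, 304 and 311 (-1.12 ± 0.08). NUF2, another subunit of the same complex, was at -0.37 ± 0.09 and not called. CENPF (-0.84) and the motor CENPE (-0.75) fell, and the centromeric histone CENPA (-0.49) did not pass the fold threshold.

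Of the 4 spindle checkpoint genes, TTK (-0.81) and BUB1B (-0.74) fell, while BUB1 (-0.58) lay at the threshold and MAD2L1 was at -0.45. None of the 4 genes of the anaphase-promoting complex pathway was called. CDC20 was at -0.56 ± 0.03, securin (PTTG1) at -0.39 ± 0.04 and UBE2C at -0.33 ± 0.06, all with an adjusted p under 0.05. UBE2S, which extends the ubiquitin chains made by the complex, was the only 1 of the 40 genes that did not pass the adjusted p (0.367). It had 2025, 2061 and 2326 in the vehicle and 1928, 1943 and 2229 at the high dose, with overlapping groups and a 95% interval of the log2 fold change from -0.19 to 0.05.

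**Figure D2:**
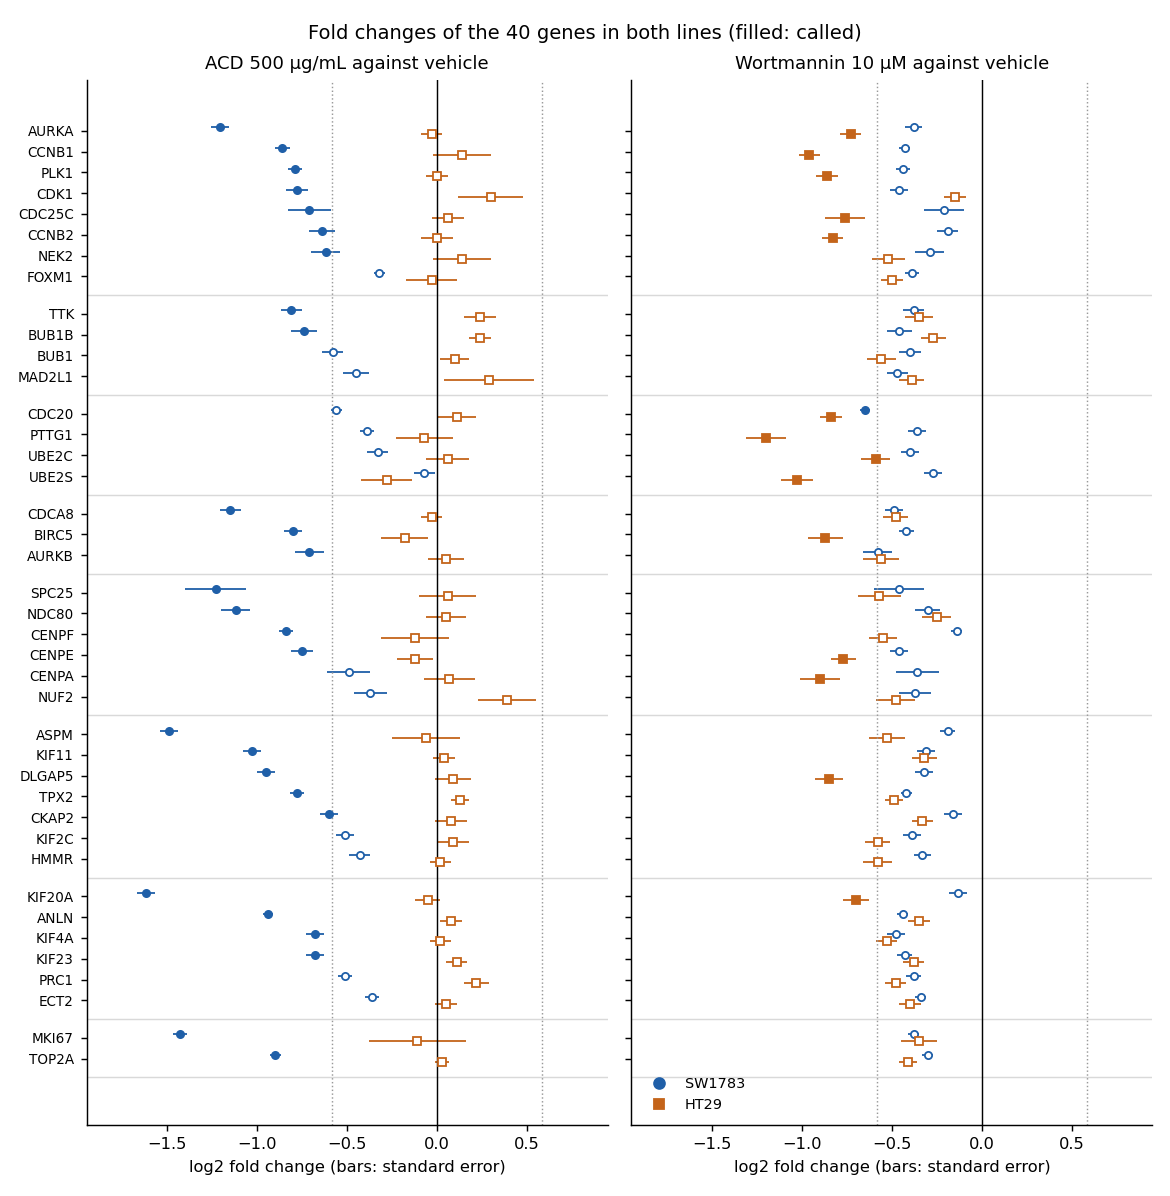
Log2 fold change (horizontal axes) of each of the 40 genes (vertical axis, grouped by role) with ACD at 500 µg/mL (left) and wortmannin at 10 µM (right) against the vehicle of the same batch. Circles are SW1783, squares HT29, bars the standard error (n = 3 per group), filled symbols genes called and dotted lines a 1.5-fold change. On the left 27 circles and no squares are filled, and on the right 1 circle and 14 squares.

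The changes followed the dose. In SW1783 the group means of 32 of the 40 genes stood in the order vehicle, low, medium, high from highest to lowest, against 16.9% of all genes tested. At the low dose no gene was called (0.0215% of 9324 genes tested fell and 0.0965% rose) and the median log2 fold change was -0.04. By adjusted p alone 1 gene, KIF23, fell (-0.14 ± 0.04, adjusted p = 0.0485), against 1.23% of all genes. CCNB1 was at -0.07, CDK1 at -0.03, PLK1 at -0.05, AURKB at -0.12, TOP2A at -0.04, MKI67 at -0.08 and FOXM1 at -0.03. SPC25 had no adjusted p at the low dose, since DESeq2's independent filtering left it out.

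At the medium dose no gene passed the fold threshold either (1.48% of 14111 genes tested fell and 2.34% rose), but 32 genes fell by adjusted p alone, where 14.4% of all genes did. The median was -0.22. MKI67 had 3925, 3758 and 3889.7 normalised counts at the medium dose (-0.53 ± 0.04), ASPM 2237, 2129.5 and 2129.5 (-0.50 ± 0.05) and KIF20A 1576, 1569 and 1526 (-0.47 ± 0.05). The 3 medium libraries of these genes lay between the vehicle and the high dose without overlap. In 34 of the 40 genes all 3 medium libraries were below all 3 vehicle libraries. The share of all genes is not given for that dose, so the count of 34 has no background. CCNB1 was at -0.21, CDK1 at -0.27, PLK1 at -0.26, AURKB at -0.32, TOP2A at -0.29 and FOXM1 at -0.13 on the log2 scale. PTTG1, UBE2C, UBE2S and CENPA were within 0.04 of 0 at that dose.

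Between the medium and the high dose 12 genes fell and none rose, against 5.6% and 4.58% of 16501 genes tested. The largest steps were those of KIF20A (-1.15 ± 0.05), ASPM (-0.99 ± 0.05), AURKA (-0.91 ± 0.05) and MKI67 (-0.90 ± 0.04). The low, medium and high doses used the same 3 vehicle libraries, so their fold changes are not independent of each other.

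**Figure D3:**
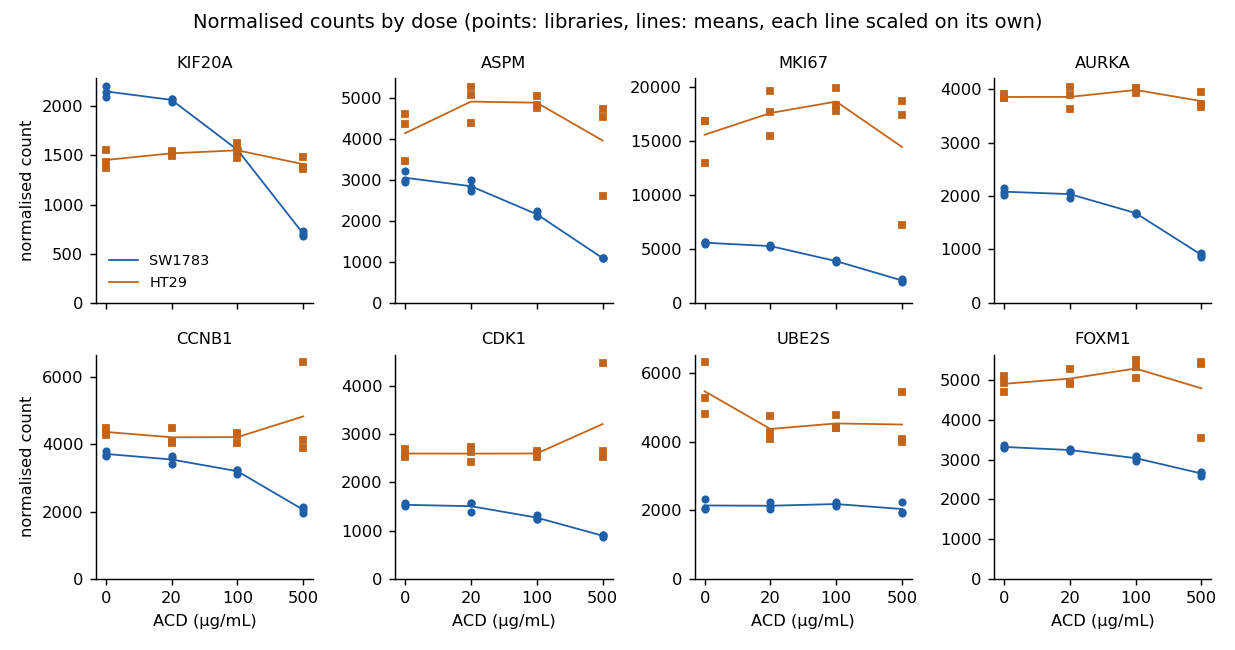
Normalised counts (vertical axes, scaled within each cell line) of 8 genes against the dose of ACD (horizontal axes, µg/mL, doses drawn at equal spacing). Points are libraries and lines join the means of 3 replicates, with circles for SW1783 and squares for HT29. KIF20A stands at 677 to 734 in the 3 SW1783 libraries of the high dose, UBE2S lies between 1928 and 2326 in all SW1783 libraries of the batch, and in HT29 a single library of the high dose lies away from the other 2 for MKI67, ASPM, CCNB1, CDK1 and FOXM1.

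Since these genes moved together, the DNA just before their start sites is shown for 7 of them. Many mitotic promoters hold a cell cycle genes homology region (CHR), at which MuvB complexes bind, and CCAAT boxes, at which NF-Y binds. The stretches below are from RefSeq on GRCh38.p14, written 5′ to 3′ in the direction of the gene, with CHR letters (TTTGAA or TTCGAA) and CCAAT on either strand in capitals. Each lies within 140 bases before the start site and holds no exon annotated by GENCODE 44. KIF20A (chr5:138178972-138179111, plus strand), ASPM (chr1:197146695-197146809, minus strand), MKI67 (chr10:128126424-128126563, minus strand) and KIF11 (chr10:92592990-92593129, plus strand) were among the genes that fell most in SW1783 at the high dose. CCNB1 (chr5:69167010-69167134, plus strand), PTTG1 (chr5:160421715-160421854, plus strand) and UBE2S (chr19:55407789-55407928, minus strand) fell most in HT29 with wortmannin.
KIF20A: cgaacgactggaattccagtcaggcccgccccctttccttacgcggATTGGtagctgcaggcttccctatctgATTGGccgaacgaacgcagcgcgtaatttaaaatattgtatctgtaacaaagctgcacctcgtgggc
ASPM: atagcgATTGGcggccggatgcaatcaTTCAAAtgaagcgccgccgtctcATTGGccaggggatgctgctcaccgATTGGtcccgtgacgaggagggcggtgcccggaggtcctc
MKI67: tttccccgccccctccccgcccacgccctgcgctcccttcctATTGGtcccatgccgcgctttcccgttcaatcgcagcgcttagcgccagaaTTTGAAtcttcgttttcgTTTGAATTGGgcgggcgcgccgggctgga
KIF11: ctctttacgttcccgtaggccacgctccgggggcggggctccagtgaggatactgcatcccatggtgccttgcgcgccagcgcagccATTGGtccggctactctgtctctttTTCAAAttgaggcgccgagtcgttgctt
CCNB1: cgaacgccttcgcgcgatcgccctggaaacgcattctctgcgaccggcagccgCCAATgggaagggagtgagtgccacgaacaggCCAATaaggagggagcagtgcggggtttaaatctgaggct
PTTG1: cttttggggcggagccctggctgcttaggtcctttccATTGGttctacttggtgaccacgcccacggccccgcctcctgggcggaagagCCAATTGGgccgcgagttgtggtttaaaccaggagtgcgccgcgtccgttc
UBE2S: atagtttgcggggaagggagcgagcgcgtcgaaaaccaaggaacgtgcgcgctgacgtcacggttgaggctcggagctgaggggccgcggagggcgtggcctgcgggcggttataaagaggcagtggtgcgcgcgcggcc

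In these stretches MKI67 held 2 CHR matches and 2 CCAAT matches, the last of which overlaps a CHR match, ASPM 1 and 3, and KIF11 1 and 1. KIF20A, CCNB1 and PTTG1 held CCAAT matches (2, 2 and 3, of which 2 overlap in PTTG1) and no CHR match, and UBE2S held neither. RefSeq promoters of 300 bases, 250 before and 50 after the start, were matched for 34 of the 40 genes. The other 6 were AURKA, BIRC5, FOXM1, TPX2, TTK and UBE2C. Of the 34, 24 held the CHR letters (70.6%), against 16.6% of all 27305 promoters and 11.1% of the 9055 promoters of genes with a mean normalised count of 100 or more that were tested in SW1783. CCAAT was found in 76.5% of the 34 and 35.7% of all promoters, and both motifs in 58.8% and 6.6%. Within the set the CHR letters were found in 69.6% of the 23 genes that fell in SW1783 at the high dose and in 72.7% of the 11 that were not called. For wortmannin in HT29 the shares were 45.5% of 11 genes that fell and 82.6% of 23 that were not called. These are matches of letters only, and a missing match says nothing about binding. Because the set was listed as mitotic genes, an excess of these motifs over all promoters was likely in advance. It says nothing about the responses to ACD or wortmannin.

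In HT29 no gene of the set was called at any dose of ACD. At the high dose the median log2 fold change was 0.05, with a range from -0.28 to 0.39, while 1.63% of 16470 genes tested fell and 1.29% rose. By adjusted p alone 2 genes rose, BUB1B (0.24 ± 0.06, adjusted p = 0.000817) and PRC1 (0.22 ± 0.07, adjusted p = 0.0278), where 4% of all genes rose and 3.61% fell. BUB1B had 2146, 2311 and 2444 normalised counts in the vehicle and 2694, 2749 and 2701 at the high dose, with no overlap.

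KIF20A, AURKA, TOP2A and PLK1, which fell in SW1783, had log2 fold changes near 0 in HT29. KIF20A had 1372, 1429.6 and 1559 normalised counts in the vehicle and 1386, 1484 and 1361 at the high dose (-0.05 ± 0.07, 95% interval -0.19 to 0.09). AURKA had 3834, 3835 and 3904 and 3661, 3957 and 3722 (-0.03 ± 0.06). TOP2A had 11112, 11474 and 11439 and 11553, 11569.6 and 11618 (0.03 ± 0.04), and PLK1 4513, 4192 and 4299.5 and 4486, 4057 and 4417 (0.00 ± 0.06). None of these 4 genes passed the adjusted p, and their 95% intervals in HT29 lay above the intervals in SW1783.

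Other genes were dominated by replicate 2 of the high dose. MKI67 had 18724, 7216 and 17409 normalised counts against 12994, 16861 and 16901 in the vehicle, ASPM 4555, 2621 and 4729, and FOXM1 5451, 3540.3 and 5404 against 4704, 4933 and 5102. In replicate 2 these were the lowest values of the group, whereas CDK1 with 2519, 4477 and 2645, CCNB1 with 3903, 6448 and 4139.5 and MAD2L1 with 2379.5, 5518 and 2690.2 had their highest there. AURKB, with 1114, 1359 and 1115 against 1263, 1180.1 and 1016 in the vehicle, moved less. Replicate 2 was also the library with the lowest total of all 36. Its median over the 40 genes against the vehicle was 0.209 on the log2 scale, and those of replicates 1 and 3 were -0.015 and 0.01. Without it 0 of 40 genes were called and the median was -0.01. By adjusted p alone 3 fell and 2 rose, but the share of all genes in that fit is not given, so these counts have no background. The log2 fold change of MKI67 turned from -0.11 to 0.21 ± 0.11 and that of CDK1 from 0.30 to -0.01 ± 0.07.

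The summed share of the set in HT29 was 0.567% ± 0.0236 in the vehicle and 0.523% ± 0.0177 at the high dose (SD, n = 3). Counts from the mitochondrial ribosomal RNA genes were 11.3 to 12.5% of the libraries of the high dose and 1.14 to 1.22% of the vehicle, and that part of the total lowers the share of every other gene. At the medium and low doses the median log2 fold changes were 0.05 and 0.04. The largest negative values were those of UBE2S (-0.27 ± 0.14 and -0.32 ± 0.14) and UBE2C (-0.20 ± 0.12 and -0.23 ± 0.12), the largest positive ones those of MKI67 and ASPM, and none of these passed. At the medium dose CCNB1 was at -0.05, CDK1 at 0.00, PLK1 at 0.04, AURKB at -0.03, TOP2A at 0.04, MKI67 at 0.26 and FOXM1 at 0.11, and at the low dose they stood, in the same order, at -0.05, 0.00, 0.00, -0.10, 0.07, 0.18 and 0.04. By the full rule 0.409% of 15894 genes fell and 0.44% rose at the medium dose, and 0.176% fell and 0.145% rose at the low dose. BUB1B was the only gene to rise by adjusted p alone, at the medium dose (0.21 ± 0.06, adjusted p = 0.0128), where 1.21% of all genes did. No gene was called between the high and the medium dose (0.312% of 14742 genes fell and 0.387% rose), and 1 gene had means in the order vehicle, low, medium, high from highest to lowest, against 7.65% of all genes. The means of 5 genes stood in the opposite order, against 9.14%. Across the 40 genes these fold changes were higher for longer genes (Spearman's rho 0.68 at both the medium and the low dose, n = 40), and they did so less strongly over well-counted genes in general (0.32 and 0.38). All such values come from the same 3 vehicle libraries, of which replicate 1 had the highest UBE2S and the lowest MKI67.

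The difference between the lines was tested directly. At the high dose the log2 fold change was lower in SW1783 than in HT29 for 34 of the 40 genes and higher for none, where 8.05% of 17743 genes tested were called lower and 7.09% higher. KIF20A differed by -1.61 ± 0.07 (adjusted p = 2.12e-102), ASPM by -1.47 ± 0.21, MKI67 by -1.37 ± 0.30 and SPC25 by -1.32 ± 0.22. Every kinetochore gene (6 of 6) and every checkpoint gene (4 of 4) was among the 34, and without HT29 replicate 2 of that dose 4 of 6 and 3 of 4 were. CDK1 (-1.12), CCNB1 (-1.04), TOP2A (-0.97), PLK1 (-0.83) and AURKB (-0.79) were called too, and FOXM1 (-0.34 ± 0.15, adjusted p = 0.0766) was not. HMMR, ECT2, UBE2C, PTTG1 and UBE2S made up the other genes not called. With that library left out the count was 28, and BIRC5, CENPA, KIF2C, MAD2L1, NEK2 and NUF2 were lost. ASPM was then at -1.70 ± 0.12, MKI67 at -1.69 ± 0.13, KIF20A at -1.58 ± 0.08 and SPC25 at -1.12 ± 0.19. CDK1 stood at -0.82, CCNB1 at -0.79, TOP2A at -0.98, PLK1 at -0.88 and AURKB at -0.71. FOXM1 was at -0.52 ± 0.06 and passed the adjusted p (1.68e-16) but not the fold threshold. At the medium dose the difference was called for ASPM only (-0.76 ± 0.21, adjusted p = 0.00576), against 1.53% of 15072 genes called lower and 1.8% higher. ASPM was not called in either line alone at that dose. Its HT29 vehicles were uneven, with 3467, 4364 and 4619 normalised counts, against 4838, 5069.5 and 4776 at the medium dose. The largest difference, -0.81 in the role of TOP2A and MKI67, was not called. By adjusted p alone 20 genes were lower in SW1783, where 6.2% of all genes were.

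Wortmannin, the positive control, gave a shallow and even decline in SW1783. The summed share of the set was 0.476% ± 0.0052 in the vehicle of batch A and 0.376% ± 0.0063 with wortmannin (SD, n = 3). Only CDC20 passed the fold threshold, with 4862, 4665 and 4769.5 normalised counts in the vehicle and 3046, 2979 and 3059 with wortmannin (-0.65 ± 0.03, adjusted p = 1.4e-78), where 0.97% of 14530 genes tested fell and 1.74% rose. By adjusted p alone 39 genes fell, against 19.2% of all genes, and in all 40 the 3 treated libraries were below the 3 vehicle libraries, against 29.2%. The exception by adjusted p was CDC25C (-0.21 ± 0.11, adjusted p = 0.144). The median log2 fold change was -0.38 and the range ran from -0.65 to -0.13.

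KIF20A, which had the largest fall with ACD in SW1783, had the smallest with wortmannin, from 2398, 2480.2 and 2427 to 2115, 2322 and 2259 normalised counts (-0.13 ± 0.05). ASPM was at -0.19 ± 0.04. CCNB1 went from 4305, 4260.1 and 4221 to 3159.6, 3193 and 3158 (-0.43 ± 0.03) and CDK1 from 1924, 1914 and 1911 to 1332, 1420.3 and 1414 (-0.46 ± 0.05). PLK1 was at -0.44 ± 0.04, AURKB at -0.58 ± 0.08, TOP2A at -0.30 ± 0.03, MKI67 at -0.38 ± 0.03 and FOXM1 at -0.39 ± 0.04.

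HT29 cells, in which ACD moved none of these genes past the threshold, did respond to wortmannin. The summed share went from 0.575% ± 0.0235 in the vehicle to 0.412% ± 0.0089 (SD, n = 3). Of the 40 genes 14 fell and none rose, where 0.767% of 13162 genes tested fell and 1.97% rose, and by adjusted p alone all 40 fell, where 11.6% did. The median log2 fold change was -0.54, against -0.006 for all genes tested. All 3 treated libraries were below all 3 vehicle libraries in 39 genes, against 23.9% of all genes.

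Genes of the anaphase-promoting complex pathway led. Securin (PTTG1) had 2763, 2143 and 2015 normalised counts in the vehicle and 1092, 967 and 958 with wortmannin (-1.20 ± 0.11, adjusted p = 3.38e-23). UBE2S had 5982, 4522 and 4999 and 2609, 2556 and 2428 (-1.03 ± 0.09, adjusted p = 5.4e-25). Vehicle replicates of both genes were spread more widely than the treated ones, and still every treated library was below them. CDC20 (-0.84) and UBE2C (-0.59) completed the 4 of 4 genes of that role, the latter close to the threshold and lost in at least 1 of the 12 alternatives.

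Mitotic entry genes fell in 5 of 8 cases. CCNB1 had 4333, 3973 and 4055 and 2129, 2132 and 2097 (-0.96 ± 0.06, adjusted p = 5.23e-54), and PLK1 had 4203, 3771 and 3938 and 2189, 2220.0 and 2167 (-0.86 ± 0.06). CCNB2 (-0.83), CDC25C (-0.76) and AURKA (-0.73) fell as well. CDK1, the catalytic partner of cyclin B, had 2479.6, 2375 and 2517 and 2232, 2201 and 2186, and its log2 fold change of -0.15 ± 0.06 (adjusted p = 0.0463) was the smallest of the set. In SW1783 at the high dose of ACD the kinase and its cyclin had stood at -0.78 and -0.86. FOXM1 was at -0.50 ± 0.06.

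Among the other roles, CENPA, the histone variant that marks centromeres, had 507, 479 and 496 and 270.0, 270.1 and 254 (-0.90 ± 0.11, adjusted p = 1.99e-14). BIRC5 (-0.87), DLGAP5 (-0.85), CENPE (-0.77) and KIF20A (-0.70) fell too. AURKB (-0.56 ± 0.10), TOP2A (-0.41 ± 0.05) and MKI67 (-0.35 ± 0.10) did not pass the fold threshold, and none of the 4 checkpoint genes did.

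Exon length also went with the wortmannin values in HT29. Across the 40 genes Spearman's rho between the log2 fold change and the exon length was 0.49, and over 10828 well-counted genes it was 0.33. With a trend on exon length removed from every library, an alternative added after seeing the data, 14 genes were again called, the median was -0.48 and PTTG1, UBE2S, CCNB1 and CENPA stood at -1.04, -0.92, -0.83 and -0.75. The rho over the 40 genes was then 0.25.

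Tested between the lines, wortmannin lowered 3 genes more in HT29 than in SW1783. They were PTTG1, with a difference of log2 fold changes (SW1783 minus HT29) of 0.81 ± 0.14 (adjusted p = 1.21e-07), UBE2S with 0.73 ± 0.12 and CCNB2 with 0.62 ± 0.08, where 0.887% of 13645 genes tested were called in that direction and 2.47% in the other. By adjusted p alone 15 genes were lowered more in HT29, against 5.34% of all genes. The 1 gene lowered more in SW1783 was CDK1 (-0.33 ± 0.06, adjusted p = 2.89e-06), against 9.49%.

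The calls in the 2 lines overlapped in part. Of the 40 genes 9 were called both in SW1783 at the high dose of ACD and in HT29 with wortmannin, which share no library: AURKA, BIRC5, CCNB1, CCNB2, CDC25C, CENPE, DLGAP5, KIF20A and PLK1. They were 33.3% of the 27 and 64.3% of the 14 calls. Over all 12620 genes tested in both comparisons, 25 fell in both. These were 2.35% of the 1063 that fell in SW1783 and 25% of the 100 that fell in HT29. With 27 of the 40 genes called in SW1783, a large overlap within the set was likely in advance. The higher shares within the set therefore show no overlap beyond the number of calls in each comparison. CDC20, CENPA, PTTG1, UBE2C and UBE2S were called in HT29 with wortmannin and not in SW1783 with ACD, and 8 genes were called in neither. Spearman's rho between these log2 fold changes over the 40 genes was -0.18 (-0.14 with the length trend removed), and that between wortmannin in SW1783 and wortmannin in HT29 was -0.06. These are descriptions over genes, which are not independent, and no difference between the treatments was tested.

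**Figure D4:**
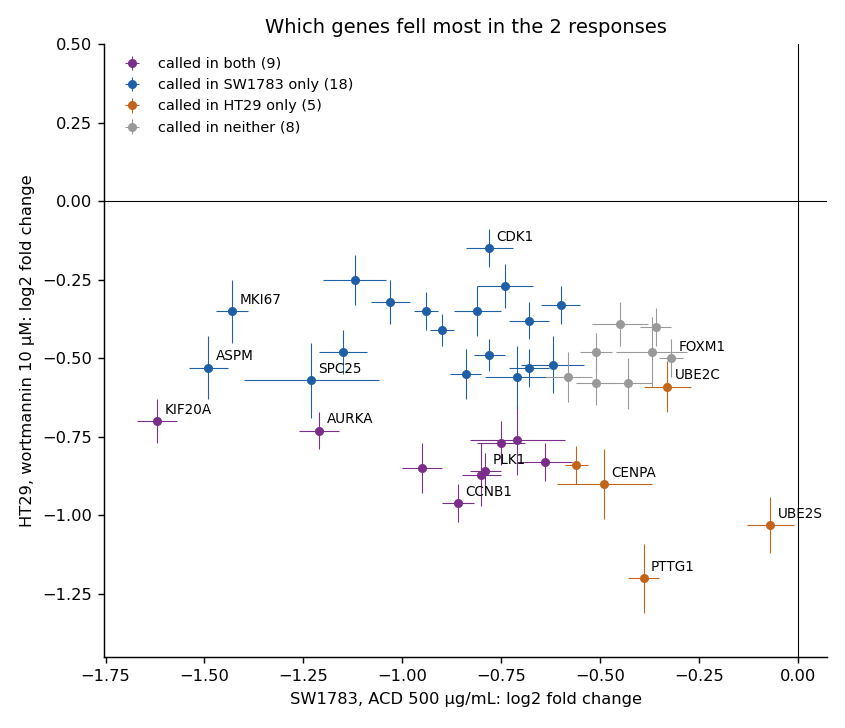
Log2 fold changes of the 40 genes in SW1783 with ACD at 500 µg/mL (horizontal axis) and in HT29 with wortmannin at 10 µM (vertical axis), each against its own vehicle. Points are genes, bars standard errors (n = 3 per group) and colours the calls: 9 genes in both, 18 in SW1783 only, 5 in HT29 only and 8 in neither. KIF20A, ASPM and MKI67 lie far to the left and PTTG1 and UBE2S far down.

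Related genes outside the set were also read in SW1783 at the high dose, where 9.55% of all genes tested fell and 8.63% rose. They were taken from 9 lists of 165 genes in all, written from general knowledge with earlier results of these data known. DNA replication genes fell in 15 of 26 cases and rose in none, led by cyclin E2 (CCNE2, -1.65 ± 0.10), the ribonucleotide reductase subunit RRM2 (-1.32 ± 0.04) and MCM10 (-1.28 ± 0.09), which helps to start replication forks. Other spindle and centrosome genes fell in 12 of 20, among them the kinesins KIF18B (-1.33 ± 0.08) and KIFC1 (-1.04 ± 0.07) and PLK4 (-0.90 ± 0.09), the kinase of centriole duplication. Other kinetochore proteins fell in 10 of 25, with ZWINT (-1.06 ± 0.06), KNL1 (-1.04 ± 0.06) and CENPL (-1.0 ± 0.12) in front.

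Cohesin and condensin genes fell in 8 of 20, with the condensin subunits NCAPG (-1.24 ± 0.07) and NCAPH (-1.08 ± 0.09) and separase (ESPL1, -0.85 ± 0.09) in front. Other regulators of mitotic entry and exit fell in 6 of 16, led by FBXO5 (-1.35 ± 0.09), an inhibitor of the anaphase-promoting complex, GTSE1 (-1.21 ± 0.07) and cyclin F (CCNF, -1.13 ± 0.08). Tubulins fell in 6 of 11, led by TUBB3 (-1.65 ± 0.06), TUBA4A (-1.29 ± 0.05) and TUBA1A (-1.0 ± 0.03). None of these lists had a gene that rose. Of the 15 genes for subunits of the anaphase-promoting complex and its coactivator FZR1, none was called.

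Regulators were mixed. Among 17 MuvB, B-MYB and E2F genes 5 fell and 3 rose. E2F2 (-1.87 ± 0.21), the repressor E2F8 (-1.47 ± 0.17) and TFDP1 (-0.86 ± 0.04) fell, while E2F7 (1.81 ± 0.03), a repressor of cell cycle genes, E2F5 (0.75 ± 0.11) and LIN37 (0.65 ± 0.16), a subunit of the MuvB core, rose. Of 15 p53 targets 5 rose and 2 fell. BBC3 (3.55 ± 0.42), which promotes apoptosis and had a mean of only 29.9 normalised counts, SESN2 (2.74 ± 0.07) and GADD45A (2.39 ± 0.06) rose most, and all 3 also answer to stress pathways other than p53. ZMAT3 (-0.71 ± 0.05) and TP53I3 (-0.62 ± 0.11), 2 further p53 targets, fell.

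In HT29 the high dose, at which 1.63% of all genes fell and 1.29% rose, called no gene in 7 of the 9 lists. The others were the p53 targets, where SESN2 (1.12 ± 0.14) and CDKN1A (0.59 ± 0.11), an inhibitor of cyclin-dependent kinases, rose and BTG2 (-1.01 ± 0.09) and SESN1 (-0.73 ± 0.12) fell, and the tubulins, where TUBA1A fell (-1.01 ± 0.28). These calls include replicate 2 of the high dose and are not given without it. With wortmannin, 6 of 26 replication genes fell in SW1783, led by RRM2 (-0.71 ± 0.03), GINS2 (-0.70 ± 0.10) and CDC45 (-0.70 ± 0.09). In HT29 none of them fell and CCNE2 rose (0.59 ± 0.12), and the test of the difference between the lines called 8 of the 26 lower in SW1783, led by MCM10 (-1.02 ± 0.10), CDC6 (-0.92 ± 0.07) and CCNE2 (-0.86 ± 0.12). Wortmannin in SW1783 also lowered 4 of 25 kinetochore genes, 3 of 17 MuvB, B-MYB and E2F genes with MYBL2 (-1.04 ± 0.08) among them, against 0.97% of all genes, while the counts were 2 of 20 spindle genes, 1 of 20 cohesin and condensin genes and 1 of 16 entry and exit regulators, and 1 of 15 p53 targets rose. In HT29 with wortmannin, where 0.767% of all genes fell, 3 of 16 other entry and exit regulators fell, namely CDKN3 (-0.82 ± 0.10), CKS2 (-0.71 ± 0.09) and GTSE1 (-0.60 ± 0.08). CEP55 (-0.73 ± 0.07) and TROAP (-0.73 ± 0.08) fell among the spindle genes, CENPW (-0.90 ± 0.16) and CENPM (-0.60 ± 0.11) among the kinetochore genes, and ANAPC15 (-0.65 ± 0.12) among the genes of the anaphase-promoting complex, while 1 of 11 tubulins rose and no gene of the MuvB, cohesin and p53 lists was called.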

How the data were processed

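RNA of 36 libraries (12 groups of 3 replicates, named by the labels) was sequenced by the authors from stranded mRNA libraries as 100 bp paired reads. The submitters' processing notes name FastQC 0.11.9, Trim Galore 0.6.5, STAR 2.7.3a and RSEM 1.3.3, and the study's methods name other versions of the aligner and trimmer. The deposited values are RSEM expected counts per gene made by the authors, on GRCh38. RSEM shares reads that match several genes between them, so 8.84% of the values were not whole. They were rounded. Nothing in the labels says that replicates came from separate cultures, so p-values measure the spread between these samples, which may be technical.

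The test was the Wald test of DESeq2 1.42.0 (R 4.3.3, Benjamini-Hochberg adjustment over all genes tested), which the study also used. Fitting each line and batch on its own was a choice made here. A gene was called at an adjusted p under 0.05 and a change over 1.5-fold. "Adjusted p" always means this test. Interactions between the lines were fitted on all libraries of the batch. Normalised counts are divided by DESeq2 size factors, errors of log2 fold changes are SE, and intervals are 95% Wald intervals. A gene was named if it was among the 8 called genes with the largest change at the high dose, or among 4 per direction elsewhere, with a mean of 50 or more. Cyclin B1, CDK1, PLK1, AURKB, TOP2A, MKI67 and FOXM1 were named in each group, up to 3 called genes per related list and direction were named with no minimum mean, and other members were named after their values were seen. The 40 members and the related lists were chosen with earlier results of these data known. Gene symbols, exon lengths and exons came from GENCODE 44, which matched 56558 of 60675 gene identifiers. Promoters came from RefSeq (GRCh38.p14).

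Alternatives were edgeR 4.0.16 (quasi-likelihood test), TMM-derived size factors, a low-count filter (10 counts in 3 libraries), mitochondrial and ribosomal RNA genes taken out, only the groups compared, a replicate block, no fold threshold, each replicate left out and, added after seeing the data, a length trend removed. The fits were tested on simulated data.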

Additional observations from a re-analysis of the deposited data

Results flagged for a closer look

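A test of the difference between the lines picked out the following results. At the high dose of ACD 34 genes had a lower log2 fold change in SW1783 than in HT29, with the largest differences for KIF20A (-1.61), ASPM (-1.47), MKI67 (-1.37) and SPC25 (-1.32). Without HT29 replicate 2 of that dose 28 genes did, and these 4 stood at -1.58, -1.70, -1.69 and -1.12. At the medium dose 1 gene did, ASPM (-0.76). With wortmannin 3 genes had a higher log2 fold change in SW1783 than in HT29, namely PTTG1 (0.81), UBE2S (0.73) and CCNB2 (0.62).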

How the results depend on the processing

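No called value changed direction under the alternatives run, while the median for HT29 high, where no gene was called, turned from 0.05 to -0.01 without HT29 high replicate 2. Without the fold threshold the counts of called genes were 32 (SW1783 medium), 1 (SW1783 low), 38 (SW1783 high against medium), 2 (HT29 high), 1 (HT29 medium), 39 (SW1783 wortmannin), 40 (HT29 wortmannin), 20 and 16 (difference between lines, medium ACD and wortmannin) and 28 (vehicles). The shares of all genes by that rule are not given for the 38 and the 28, so these counts have no background. The difference between lines at the medium dose was called for 2 genes with edgeR, 3 with only the groups compared and 3 with the length trend removed, against 1. The median log2 fold change was 0.06 for HT29 medium with edgeR and with TMM-derived size factors, and with the length trend removed it was -0.34 for SW1783 wortmannin and -0.48 for HT29 wortmannin. With each replicate left out, the count was 1 to 2 both for SW1783 wortmannin and for the difference at the medium dose, where SW1783 vehicle replicate 1 of batch A or wortmannin replicate 2 or 3 gave 2 in the first and HT29 vehicle replicate 3, HT29 medium replicate 2, SW1783 vehicle replicate 2 or SW1783 medium replicate 1 or 2 gave 2 in the second. The medians ranged from -0.78 to -0.70 (SW1783 high), -0.24 to -0.22 (SW1783 medium), -0.05 to -0.04 (SW1783 low), 0.04 to 0.06 (HT29 medium), -0.01 to 0.10 (HT29 high) and -0.55 to -0.51 (HT29 wortmannin), and the count for HT29 wortmannin from 14 to 18. CCNB2 lost its call in the difference for wortmannin (0.57) without SW1783 wortmannin replicate 3. Of the 27 calls in SW1783 at the high dose 25 were kept in every one of 13 alternatives, and of the 14 in HT29 with wortmannin 13 in every one of 12. The causes were not tested.

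With the replicate number as a block (replicate block), 15 genes were called for HT29 with wortmannin, against 14 without the block. No other count changed, and that for SW1783 at the high dose was again 27. Deviations of same-numbered samples correlated from -0.487 to 0.37 within the treatment comparisons, so the numbers did not pair treated with vehicle libraries. Same-numbered vehicles of batches A and B did deviate together (0.237 to 0.303 in SW1783 and 0.503 to 0.801 in HT29), and no gene was called between them with or without the block.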
